A study of Mus musculus with 6 samples.

Results

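Otoconia are the small calcium carbonate crystals that lie on the gravity-sensing organs of the vestibule, the balance part of the inner ear. The set described here holds 6 genes that are needed to build them, Oc90, Otol1, Otop1, Nox3, Noxo1 and Cyba. They were chosen by name for their known part in otoconia assembly, and were found by matching the symbol to the Ensembl identifier of each gene. All 6 were among the 39179 genes in the count files, and all 6 passed the filter of 1 CPM (the usual counts-per-million scale, which divides a count by the gene counts of its library) in 3 or more libraries, which left 14723 genes for testing. Otop1 passed it through its vestibular libraries alone, and Nox3 through the vestibular libraries and 1 cochlear library, so these genes could enter the test only by being high in the vestibule.

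RNA was sequenced from the sensory epithelium of the cochlea, the hearing organ, and of the vestibule of wild-type C57Bl/6J mice at P0, the day of birth, with males and females pooled. There were 3 libraries of each tissue. Each library drew on pooled tissue of at least 20 ears and was made from 450 ng of total RNA with a stranded mRNA kit. The labels do not say which vestibular organs were taken, and the sources do not say whether the 3 libraries of a tissue came from separate RNA pools. The p-values below therefore measure only the spread between these libraries, which may be technical.

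Otoconia grow around a protein core that the epithelium of the vestibular organs secretes before and around birth. Otoconin, the product of Oc90, is the main protein of the crystals and recruits the other matrix proteins, and otolin, the product of Otol1, is a collagen-like scaffold. Otopetrin, the product of Otop1, is a proton channel of the membrane. Nox3 is the catalytic subunit of an NADPH oxidase, a membrane enzyme that makes superoxide. It works with Cyba, the p22phox subunit shared by several such oxidases, and with Noxo1, the organizer that binds p22phox and brings the complex together at the membrane. Mice that lack Otop1, Nox3, Noxo1 or Cyba function form no otoconia and have a head tilt or poor balance.

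Gene counts were between 24464483 and 29225105 per cochlear library and between 25476572 and 33664793 per vestibular library, so that 1 CPM stood for 24.5 to 33.7 counts. Libraries of the same tissue differed by more than sampling noise, with a chi-square per degree of freedom of 28.6 to 99.6 over genes, and none was left out. The tissue labels were checked with marker genes. Summed over 3 vestibular transcription factor genes (Hmx2, Hmx3 and Dlx5), the level was 3.16 to 4.31 CPM in the cochlear libraries and 116 to 130 CPM in the vestibular ones, and all 3 were called higher in the vestibule. Dlx5 passed the filter through its vestibular libraries alone, so it could be called only in that direction. Summed over 5 cochlear duct markers, the level was 281 to 376 CPM in the cochlea and 50.7 to 63.3 CPM in the vestibule, and all 5 were called higher in the cochlea. Insm1, which is among them, passed the filter through its cochlear libraries alone, so it could be called only in that direction. The summed level of 8 hair cell markers was 566 to 788 CPM in the cochlea and 949 to 1280 CPM in the vestibule. Of these markers 3 were called higher in the vestibule and 5 were not called, 1 of them lower in every vestibular library. Otof had the largest gap in CPM, at 53.5 to 102 and 307 to 530 CPM, so the sums rest largely on that gene. Intervals and detection limits given below cover counting error only.

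The question for each gene was how its mRNA level differed between the vestibule, where otoconia form, and the cochlea, which has none. By the quasi-likelihood test of edgeR at a Benjamini-Hochberg false discovery rate (FDR) of 0.05, 5 of the 6 genes were higher in the vestibule, 0 were higher in the cochlea, and Noxo1 did not pass. All 6 fitted fold changes were above 0. Of all 14723 genes tested, 15.8% were called higher in the vestibule and 11.6% higher in the cochlea, 27.4% in either direction. The sizes were very unequal. The cochlear mean was 0.108% of the vestibular mean for Otop1 and 0.961% for Nox3, 12.3% for Otol1 and 15.8% for Oc90, and 56.4% for Cyba and 63.2% for Noxo1. The median log2 fold change of the 6 genes, vestibule minus cochlea as in all fold changes here, was 2.72, where the median of all tested genes was 0.005. In tissue with many cell types, fewer cells of one type and less RNA per cell cannot be told apart.

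**Figure D1:**
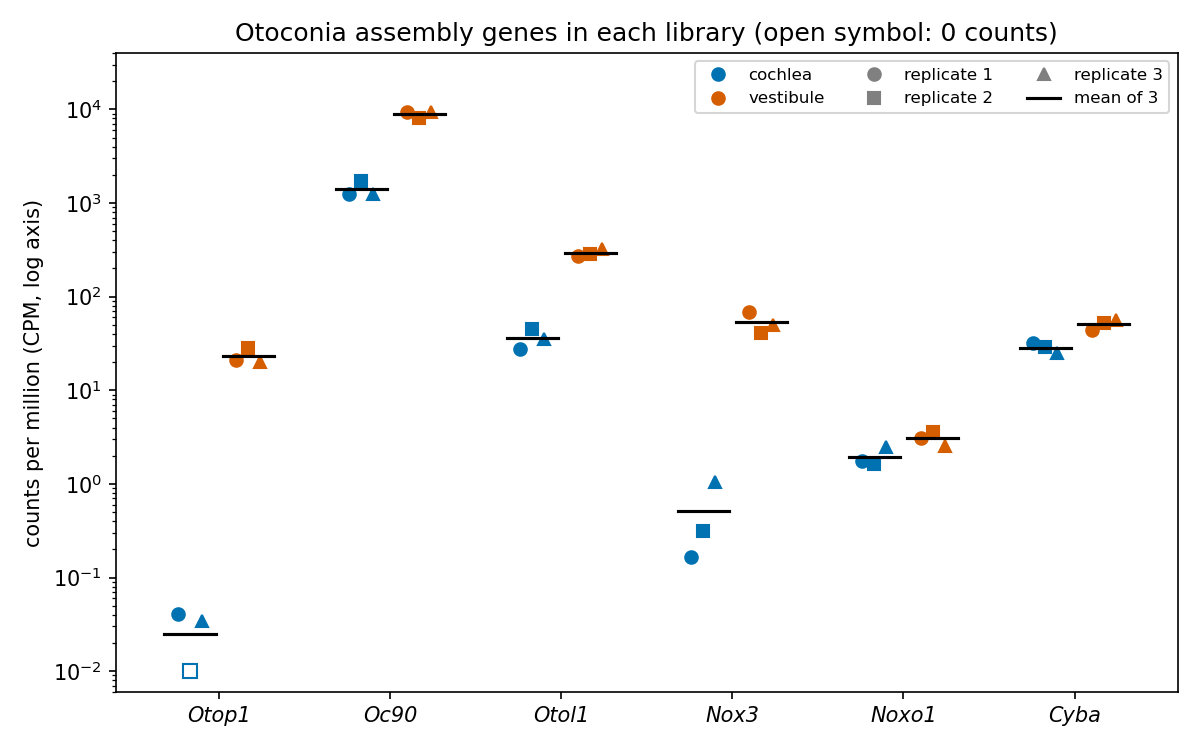
Level in CPM on a log axis for the 6 otoconia assembly genes in each of the 6 libraries, with cochlear libraries in blue, vestibular ones in orange, symbol shapes for the replicates and a bar at the mean of 3. An open symbol marks a library with 0 counts and is drawn at the foot of the axis. The vestibular symbols lie above the cochlear ones for all 6 genes, with the widest gaps for Otop1 and Nox3 and a narrow gap for Noxo1.

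Oc90 (ENSMUSG00000015001, GRCm38 chr15:65876053-65912397, minus strand, 15 exons) was among the most abundant transcripts of the vestibular epithelium. Its level was 9420, 8140 and 9290 CPM in vestibular libraries 1, 2 and 3. In cochlear libraries 1, 2 and 3 it was 1260, 1720 and 1250 CPM. All vestibular libraries were thus far above all cochlear ones, and the cochlear level was itself high. The mean was 8950 ± 704 CPM in the vestibule and 1410 ± 269 CPM in the cochlea (SD, n = 3 each), a fold of 6.34 between the means. On the log2 scale the fitted difference was 2.54 (SE 0.24), with an adjusted p of 0.000107 (edgeR quasi-likelihood, Benjamini-Hochberg).

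The reads of Oc90 alone made up 0.942% of all gene counts in vestibular library 1, with a 95% Clopper-Pearson interval of 0.939% to 0.945%. The share was 0.814% and 0.929% in vestibular libraries 2 and 3. By raw count Oc90 ranked 2, 4 and 3 among all genes in these libraries, and by RPKM, the level per kilobase of gene, it ranked 6, 8 and 8. In the cochlea it took 0.126%, 0.172% and 0.125% of gene counts and still ranked 63, 40 and 49 by count. A gene of the otoconial matrix was therefore among the most counted transcripts of the cochlear libraries as well.

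Otol1 (ENSMUSG00000027788, GRCm38 chr3:70007613-70028708, plus strand, 5 exons) had 271, 284 and 326 CPM in vestibular libraries 1, 2 and 3. The cochlear libraries had 27.3, 45.4 and 35.7 CPM. The groups did not overlap, and the lowest vestibular value was well over the highest cochlear one. The means were 293 ± 28.8 CPM and 36.1 ± 9.10 CPM (SD, n = 3 each), a fold of 8.12. The fitted log2 fold change was 2.90 (SE 0.23, adjusted p = 3.87e-05, edgeR quasi-likelihood, Benjamini-Hochberg).

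The matrix genes Oc90 and Otol1 were also compared with each other. Within a library, log2 CPM of Otol1 minus that of Oc90 was -5.12, -4.84 and -4.83 in the vestibule and -5.53, -5.24 and -5.14 in the cochlea. These groups did not overlap, and their means were 0.37 apart (exact two-sided permutation test, p = 0.1, the smallest that 3 against 3 libraries can give). Cochlear library 2 held the highest cochlear value of both genes. Per length the gap between them was wide in both tissues, since the RPKM of Oc90 was 32.2 to 39.3 times that of Otol1 in vestibular libraries and 39.7 to 52.1 times in cochlear ones.

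Otop1 (ENSMUSG00000051596, GRCm38 chr5:38275972-38304217, plus strand, 8 exons) had almost all of its reads in the vestibular libraries. It had 704, 729 and 513 counts in vestibular libraries 1, 2 and 3, or 20.9, 28.4 and 20.1 CPM. The cochlear libraries held 1, 0 and 1 counts. A count of 0 in cochlear library 2 allows a level of up to 0.104 CPM, taken as 3 counts, and the levels in cochlear libraries 1 and 3 were 0.0409 and 0.0342 CPM. With the libraries of a tissue pooled, 1946 counts stood against 2, a ratio of 946 after scaling to library size, with a 95% exact interval of 262 to 7820. Because so few cochlear reads were seen, this ratio was imprecise. It was 1330 (239 to 52600) without cochlear library 1, 616 (170 to 5090) without library 2 and 1220 (219 to 48300) without library 3. The fitted log2 fold change of 9.54 (SE 0.41, adjusted p = 3.56e-06, edgeR quasi-likelihood, Benjamini-Hochberg) depends on the prior count of the fit at this depth. In this fit it was the highest of all 14723 tested genes. By DESeq2 the log2 fold change was 9.76 with a larger SE of 1.05, so the smaller SE overstates the precision. The paralogs Otop2 and Otop3, which also encode proton channels, were below the filter, with at most 3 counts in any library.

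Nox3 (ENSMUSG00000023802, GRCm38 chr17:3635240-3696261, minus strand, 13 exons) had 2332, 1047 and 1269 counts in vestibular libraries 1, 2 and 3, or 69.3, 40.8 and 49.8 CPM. Cochlear libraries 1, 2 and 3 had 4, 9 and 31 counts, or 0.164, 0.312 and 1.06 CPM. Every vestibular library was far above every cochlear one, and cochlear library 3 held most of the cochlear reads. The vestibular mean was 53.3 ± 14.6 CPM and the cochlear mean 0.512 ± 0.481 CPM (SD, n = 3 each). The pooled ratio was 103, with a 95% exact interval of 76.4 to 142, and it was 79.5 (58.3 to 111) without cochlear library 1, 84.1 (60.4 to 121) without library 2 and 225 (131 to 422) without library 3. The fitted log2 fold change of Nox3 was 6.53 (SE 0.48, adjusted p = 2.96e-05, edgeR quasi-likelihood, Benjamini-Hochberg), the 14th highest of all tested genes, and 7.60 without cochlear library 3. By DESeq2 it was 6.56 with a larger SE of 0.71.

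Cyba (ENSMUSG00000006519, GRCm38 chr8:122424776-122432930, minus strand, 7 exons) had 44.3, 51.9 and 55.7 CPM in vestibular libraries 1, 2 and 3. It had 32.0, 28.7 and 25.0 CPM in the cochlear libraries. The groups did not overlap, but the difference was small beside those of the genes above. The means were 50.6 ± 5.76 and 28.6 ± 3.48 CPM (SD, n = 3 each), a fold of 1.77. The log2 fold change was 0.71 (SE 0.16, adjusted p = 0.0114, edgeR quasi-likelihood, Benjamini-Hochberg).

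Noxo1 (ENSMUSG00000019320, GRCm38 chr17:24696234-24700529, plus strand, 6 exons) was measured at low counts in both tissues. Its level was 3.09, 3.62 and 2.55 CPM in vestibular libraries 1, 2 and 3, from 104, 93 and 65 counts. In the cochlea it was 1.76, 1.63 and 2.46 CPM, from 43, 47 and 72 counts. The highest cochlear value lay just under the lowest vestibular one. The log2 fold change of 0.54 (SE 0.25) did not pass the test (adjusted p = 0.145, edgeR quasi-likelihood, Benjamini-Hochberg). Of its 3013 exonic bases, 2122 are shared with Tbl3 on the opposite strand. The strand setting of the counting is not given in the sources used here. If strand was not used, reads from the shared bases cannot be assigned to either gene, and the effect on the level of Noxo1 was not tested. Tbl3 had 29.4 to 41.3 CPM in the cochlea and 31.0 to 37.0 CPM in the vestibule, a log2 fold change of -0.17.

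For all 6 genes every vestibular library was above every cochlear one, which held for 27.5% of all tested genes. The exact two-sided permutation test over the 6 libraries gave p = 0.1 for each gene, the smallest this design allows. The plot of fold changes sets these sizes beside the range of all genes, whose 5th and 95th percentiles were -1.16 and 1.73 on the log2 scale. Oc90, Otol1, Otop1 and Nox3 were above that range, and Cyba and Noxo1 were inside it.

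**Figure D2:**
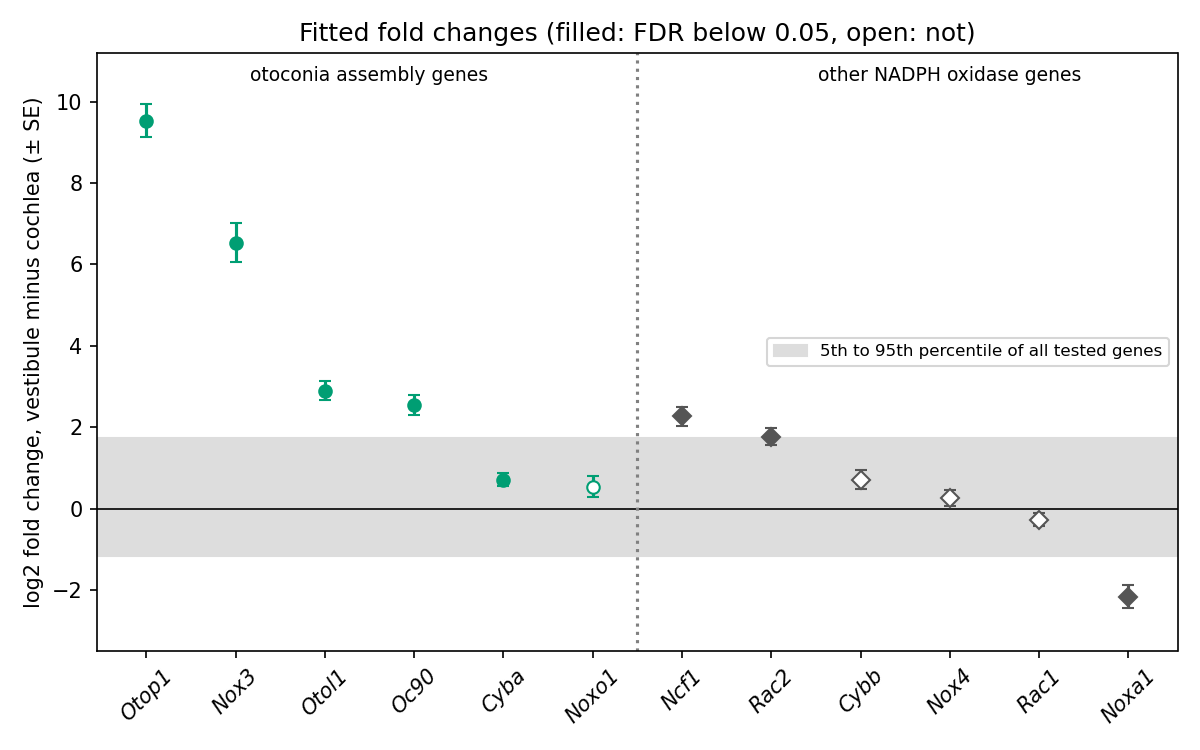
Fitted log2 fold change, vestibule minus cochlea, with its approximate standard error for the 6 otoconia assembly genes (circles) and the other tested NADPH oxidase genes (diamonds). Filled symbols passed an FDR of 0.05, and the grey band spans the 5th to 95th percentile of all tested genes. Otop1 (9.54) and Nox3 (6.53) stand highest, Noxa1 (-2.17) lies below the band, and Noxo1 (0.54) is open.

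The vestibular marker genes gave a scale for the cochlear remainder. The cochlear mean of Hmx2, Dlx5 and Hmx3 was 2.42%, 2.67% and 3.91% of the vestibular mean. Otop1 (0 to 0.177% over the cochlear libraries) was below the lowest single value of these markers, 1.63%, in every cochlear library. Nox3 (0.307%, 0.586% and 1.99% in cochlear libraries 1, 2 and 3) was below all 3 markers of the same library each time, the lowest of which were at 2.42%, 1.63% and 2.32%. Otol1 (9.29% to 15.5%) and Oc90 (14.0% to 19.3%) were above the highest single value of the markers, 4.23%, in every cochlear library. Whether carried-over vestibular tissue had a part in the cochlear reads was not tested.

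**Figure D3:**
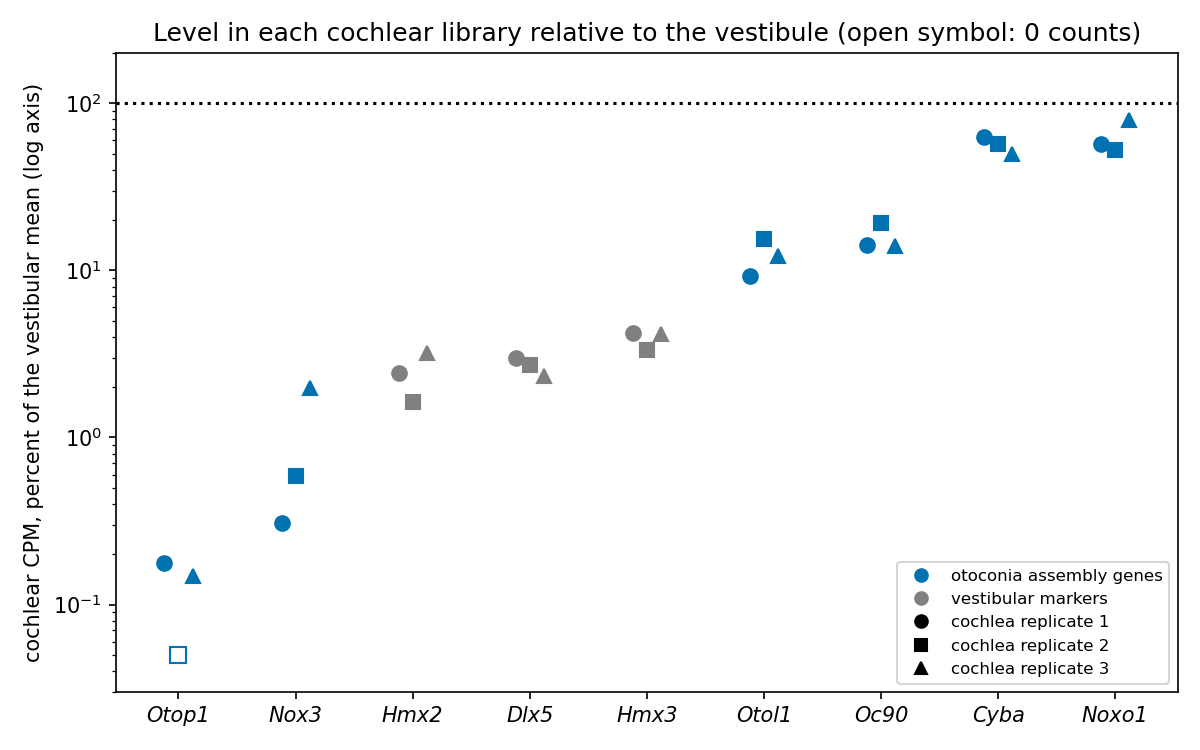
Level in each cochlear library as a percentage of the mean of the vestibular libraries, on a log axis, for the otoconia assembly genes (blue) and 3 vestibular marker genes (grey). The open symbol marks the cochlear library with 0 Otop1 counts and is drawn at the foot of the axis, and the dotted line is at 100%. Otol1 and Oc90 lie above the markers, and Otop1 lies below them.

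The genes also differed in how their mRNA levels ranked, which can be compared only per length. By the authors' RPKM the vestibular means fell in the order Oc90 (4690 ± 369), Otol1 (136 ± 13.3), Cyba (66.9 ± 7.60), Nox3 (29.8 ± 8.15), Otop1 (7.16 ± 1.41) and Noxo1 (0.851 to 1.21 over libraries). No neighbours in this order overlapped between libraries. In the cochlea the order was Oc90 (740 ± 141), Cyba (37.8 ± 4.59), Otol1 (16.8 ± 4.22), Noxo1 (0.545 to 0.822), Nox3 (0.0964 to 0.598) and Otop1. There the ranges of Noxo1 and Nox3 over the libraries overlapped, but Noxo1 was above Nox3 within each cochlear library. The levels of Noxo1 per length, here and in the ratios to it, carry the limit set by the bases it shares with Tbl3.

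Per length, the mRNA of Nox3 therefore stood in different proportions to that of its partners in the tissues. These ratios follow from the fold changes above and are not proportions within a single kind of cell. The RPKM of Nox3 was 37.6, 18.9 and 32.7 times that of its organizer Noxo1 in vestibular libraries 1, 2 and 3. In cochlear libraries 1, 2 and 3 it was 0.164, 0.329 and 0.727 of it. The RPKM of Cyba was above that of Nox3 in all libraries, by 1.51 to 3.01 times in the vestibule and by 55.3 to 438 times in the cochlea. On log2 CPM within a library, Nox3 minus Noxo1 differed by 6.35 between the tissues and Nox3 minus Cyba by 6.19, both without overlap (exact permutation p = 0.1 each, 0.14 after Benjamini-Hochberg adjustment over 7 such comparisons). Cyba minus Noxo1 overlapped between the tissues and differed by 0.16 (exact permutation p = 0.8). The level of the catalytic subunit relative to each partner thus did not overlap between the tissues, while that of one partner relative to the other did.

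The other 4 of these comparisons, like Cyba minus Noxo1, joined genes next to each other in the order of fitted fold change. These pairs were thus picked from the differences that they compare. Otop1 minus Nox3 differed by 2.22 with overlap (exact permutation p = 0.2, adjusted 0.233), a value set by the few cochlear reads of both genes. Nox3 minus Otol1 differed by 3.97 and Oc90 minus Cyba by 1.85, both without overlap and with an exact permutation p of 0.1. The remaining one, Otol1 minus Oc90, is given above.

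**Figure D4:**
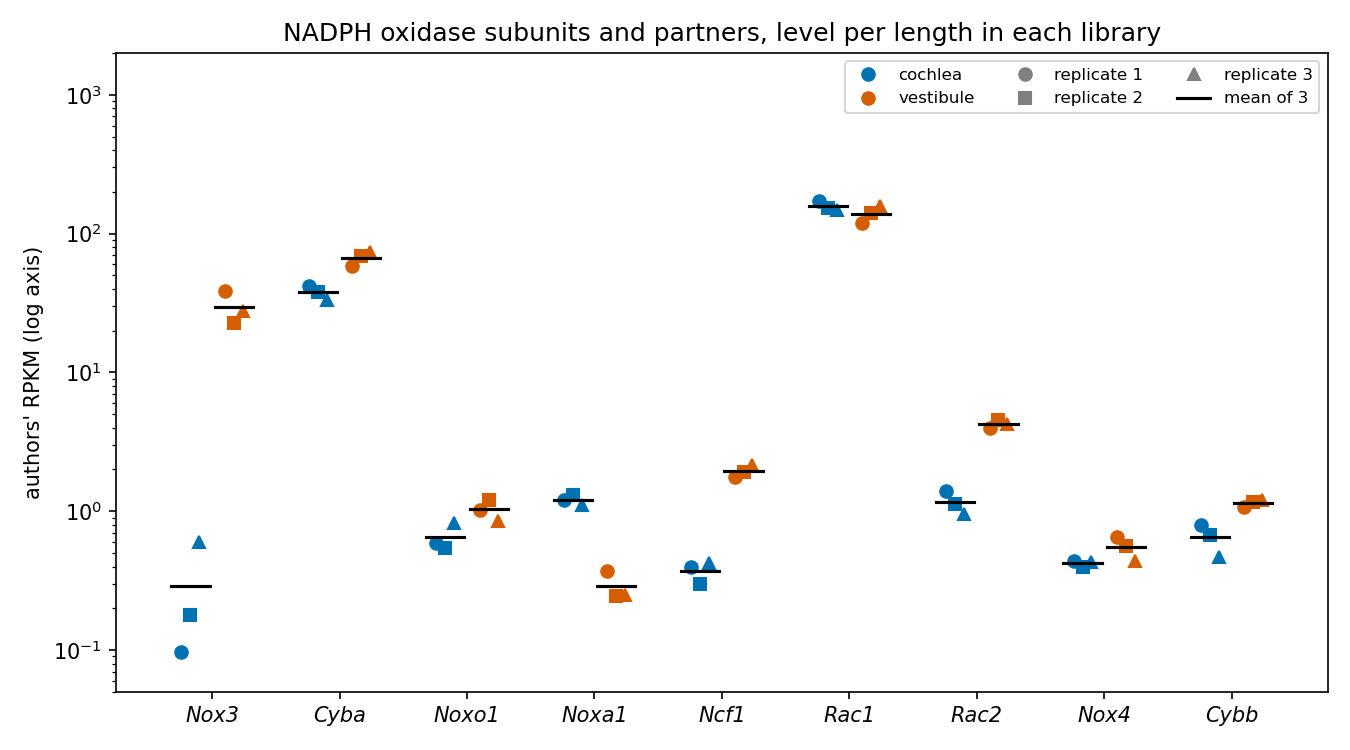
The authors' RPKM on a log axis for Nox3, Cyba, Noxo1 and the other tested NADPH oxidase genes in each library, with cochlear libraries in blue, vestibular ones in orange and a bar at the mean of 3. Nox3 rises from at most 0.598 in the cochlea to at least 22.8 in the vestibule, Cyba is high in both tissues, and Noxa1 is the tested gene called higher in the cochlea.

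Of 12 further genes for NADPH oxidase subunits, paralogs and partners counted here, which are not all such genes, 6 passed the filter, 2 were called higher in the vestibule, 1 was higher in the cochlea and 3 did not pass the test. Noxa1 encodes the activator that pairs with Noxo1 in some oxidase complexes. It had 0.594, 0.389 and 0.393 CPM in vestibular libraries 1, 2 and 3 and 1.92, 2.08 and 1.78 CPM in cochlear ones. It passed the filter through its cochlear libraries alone, so it could enter the test only by being high in the cochlea. It was lower in every vestibular library, on 10 to 20 counts each (log2 fold change -2.17, SE 0.28, adjusted p = 0.000577, edgeR quasi-likelihood, Benjamini-Hochberg).

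The genes called higher in the vestibule were Ncf1 (log2 fold change 2.27), which encodes a cytosolic subunit of the phagocyte oxidase, and Rac2 (1.76), which encodes a small GTPase mostly made in blood cells. Cybb, the catalytic subunit of that oxidase, was at 3.75 ± 0.970 CPM in the cochlea and 6.66 ± 0.353 CPM in the vestibule (SD, n = 3 each) and did not pass the test (adjusted p = 0.0603, edgeR quasi-likelihood, Benjamini-Hochberg). Rac1, a widely made GTPase, was the most abundant of the list, at 415 ± 33.4 and 369 ± 49.3 CPM, and overlapped between the tissues. Nox4, another catalytic subunit, had 3.57 ± 0.209 and 4.64 ± 0.871 CPM and did not pass either. Ncf4 (0.316 and 1.15 CPM), Nox1, Duox1, Duox2, Duoxa1 and Duoxa2 were below the filter. Among the 3 catalytic subunits tested, Nox3 therefore had the highest RPKM in every vestibular library, with Cybb at a mean RPKM of 1.15 and Nox4 at 0.549.

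Markers of macrophages, which also use Cyba, moved in the same direction. All 10 macrophage markers were called higher in the vestibule, with a summed level of 113 to 135 CPM in the cochlea and 475 to 539 CPM in the vestibule, a fold of 4.12, and none was at 0. Of 6 neutrophil markers 2 passed the filter and neither was called, with sums of 2.84 to 6.13 and 4.36 to 6.44 CPM. All 5 melanocyte markers were higher in the vestibule, with sums of 31.0 to 60.0 and 272 to 336 CPM, and so were 5 of 6 markers of dark cells and the stria vascularis (sums of 500 to 640 and 720 to 867 CPM). The melanocyte markers Tyrp1 and Mlana passed the filter through their vestibular libraries alone, so they could be called only in that direction. The part of any of these cell types in the levels of Cyba, Ncf1, Rac2 or the other genes was not tested.

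Other matrix genes did not share one direction. Of 10 genes for matrix proteins of the otoconia and of the otolithic and tectorial membranes, 8 were tested, 3 were called higher in the vestibule, 3 higher in the cochlea and 2 were not called, with a median log2 fold change of -0.22. Those higher in the vestibule were Otog, which encodes otogelin of the otolithic and tectorial membranes (log2 fold change 1.04), Spp1, which encodes osteopontin (1.80), and Sparc, which encodes a calcium-binding matrix protein (0.69). Those higher in the cochlea were the tectorin genes Tecta (-4.22) and Tectb (-2.81), which encode main proteins of the tectorial membrane, and Otogl (-1.56). Per length Oc90 exceeded Sparc in the vestibule, at 2.15 to 2.38 times its RPKM, and was under it in the cochlea, at 0.560 to 0.722 of it.

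Of 11 genes for calcium, bicarbonate and proton handling of the endolymph, 9 were tested and 7 were not called. Slc26a4, which encodes the anion exchanger pendrin, was higher in the vestibule (10.4 ± 1.83 and 24.3 ± 3.26 CPM, log2 fold change 1.11, adjusted p = 0.00165, edgeR quasi-likelihood, Benjamini-Hochberg). Atp6v1b1, a subunit of the proton pump V-ATPase, was higher in the cochlea (21.8 ± 4.23 and 1.39 ± 0.255 CPM, log2 fold change -4.10, SD and n = 3 as above). None of the 3 vesicle trafficking genes whose mouse mutants have otoconia defects was called, with log2 fold changes of -0.25 for Bloc1s6, -0.18 for Bloc1s5 and 0.31 for Ap3d1.

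The tested genes with the closest pattern to each member, by the smallest root mean square (RMS) difference in centred log2 CPM over the 6 libraries, were listed as a description. For Oc90 they were Wdr63 (0.0837), Drc1 (0.115) and Fcna (0.147). For Otol1 they were Cfap126 (0.106), Cfap52 (0.145) and Tmem52 (0.149). For Nox3 they were Ccdc81 (0.434), Grem1 (0.475) and Tmem215 (0.535), and for Otop1 they were Skor2 (0.831), Pyy (0.999) and Sox1 (1.06). Like Otop1, these last 3 had few cochlear reads, at most 13 counts in a cochlear library. For Cyba they were Ss18l2 (0.0473), Gas2 (0.0515) and Tmem37 (0.0653), and for Noxo1 Glis2 (0.0524), Bach2 (0.0574) and Lipe (0.0650). Small RMS values are common where a gene's difference is near that of many others.

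The promoters of genes that were higher in the vestibule are shown so that the genes with the widest differences (Otop1, Nox3 and Otol1) can be set beside Cyba, whose difference was small. Each is the 250 bases before the RefSeq start on GRCm38.p6, read 5′ to 3′ on the gene's strand. Capitals mark matches to the motifs searched on both strands. These were the TATA box (TATAAA), the CCAAT box (CCAAT), the GC box (GGGCGG), an E-box (CACGTG) and the core bound by HMX factors (CAAGTG). The windows are chr5:38277154-38277403 (plus) for Otop1, which lies inside the GENCODE span of the gene and downstream of its annotated start, chr17:3696262-3696511 (minus) for Nox3, chr3:70007363-70007612 (plus) for Otol1 and chr8:122432941-122433190 (minus) for Cyba.
Otop1: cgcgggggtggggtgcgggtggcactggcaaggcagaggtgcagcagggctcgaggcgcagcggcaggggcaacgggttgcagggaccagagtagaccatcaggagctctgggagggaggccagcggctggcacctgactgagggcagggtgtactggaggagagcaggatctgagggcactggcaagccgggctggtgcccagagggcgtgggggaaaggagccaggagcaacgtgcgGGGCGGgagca
Nox3: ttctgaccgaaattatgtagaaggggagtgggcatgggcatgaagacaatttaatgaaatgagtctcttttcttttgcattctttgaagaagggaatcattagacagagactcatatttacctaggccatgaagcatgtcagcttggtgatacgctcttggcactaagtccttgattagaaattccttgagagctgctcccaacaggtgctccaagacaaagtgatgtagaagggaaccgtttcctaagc
Otol1: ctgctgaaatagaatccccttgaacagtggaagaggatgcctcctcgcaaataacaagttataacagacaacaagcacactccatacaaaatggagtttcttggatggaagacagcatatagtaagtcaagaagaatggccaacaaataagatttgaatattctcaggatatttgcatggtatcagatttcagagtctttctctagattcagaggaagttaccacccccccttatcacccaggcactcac
Cyba: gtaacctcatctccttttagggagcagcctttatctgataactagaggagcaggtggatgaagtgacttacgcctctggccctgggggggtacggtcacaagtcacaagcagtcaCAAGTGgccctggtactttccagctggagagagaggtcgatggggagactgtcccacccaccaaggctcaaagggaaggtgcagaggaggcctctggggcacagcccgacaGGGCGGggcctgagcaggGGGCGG

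The windows were unlike one another in base composition. That of Otop1 had a GC content of 70.0% with 13 CpG and that of Cyba 60.0% with 6 CpG, while those of Nox3 and Otol1 had 42.8% and 41.2% with 3 and 1 CpG. Over 32851 RefSeq windows of this length the median was 52.4% with 6 CpG. Otop1 held a GC box starting 11 bases before the start, and Cyba held GC boxes at 24 and 6 bases and a CAAGTG at 135 bases. None of the motifs was in the windows of Nox3 and Otol1. A GC box was in 32.7% of all windows, CCAAT in 33.8%, TATAAA in 12.4%, CAAGTG in 11.6% and CACGTG in 6.02%. These matches are letters in a window, and binding was not measured.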

How the data were processed

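Per the methods and the submitters' processing notes, the authors aligned reads to GRCm38 (Ensembl 74) with TopHat2 2.1.0, handled the alignments with SAMtools 0.1.18 and made per-gene read counts with htseq-count (HTSeq 0.5.4p5), deposited as raw counts. The authors also deposited a log2 matrix of RPKM for 14722 genes from edgeR 3.4.2. It was raised to linear RPKM for levels per length, and differed from log2 CPM by a constant per gene to within 0.0351 over the 14307 genes with at least 10 counts in all libraries. Summary lines that name no gene (18.5% to 20.6% of listed counts) stayed out of library sizes and tests.

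Genes with at least 1 CPM in 3 libraries entered edgeR 4.0.16 under R 4.3.3 (quasi-likelihood test, TMM scaling, Benjamini-Hochberg adjustment over all tested genes, FDR 0.05), tissue being the only term. The SE of an edgeR fold change was approximated as its absolute log2 value over the square root of the F statistic. Log2 CPM for ratios within a library used a prior count of 0.5. Pooled ratios have exact conditional 95% intervals. Alternatives were DESeq2 1.42.0, limma-voom (limma 3.58.1), other scalings and filters, a replicate block and leaving out each library. Coordinates and exons are those of GENCODE vM21, not the release counted on, and promoter sequences are those of RefSeq, which matched 5 of the 6 genes. Python 3.11.15 with matplotlib 3.10.9 made the figures.

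The genes and lists were chosen with earlier results of these data known. The genes named are all members, all NADPH oxidase and otopetrin genes listed, up to 4 called genes of each other list with the largest change, and the 3 nearest genes in pattern to each member. Values of Otog, Sparc, Bloc1s6, Bloc1s5, Ap3d1 and Tbl3 were added after they were seen. The result of 1 NADPH oxidase gene is not reported here, and its list was counted without it.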

Additional observations from a re-analysis of the deposited data

How the results depend on the processing

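Over the alternatives, Oc90 (log2 fold change 2.44 to 2.74), Otol1 (2.72 to 3.13) and Nox3 (6.13 to 7.60) were called higher in the vestibule under all 16, and Otop1 (9.03 to 9.95) under the 13 in which it was tested. Noxo1 was called under none (0.42 to 0.72, adjusted p 0.0652 to 0.415), and Cyba under 15 of 16 (0.59 to 0.84). The exception was the replicate block, under which Cyba had a log2 fold change of 0.71 and an adjusted p of 0.0637 by edgeR, 4 members were called, and 1609 genes were higher in the vestibule and 1009 in the cochlea, against 2325 and 1711 without it. The replicate numbers did not pair the libraries (correlations of deviations for equal numbers -0.176, -0.260 and -0.476). Without any 1 vestibular library Otop1 fell below the filter and 4 members were called, and with 1 CPM in 2 libraries, a setting added after seeing the data, 5 were. Leaving out 1 library gave 1342 to 2694 genes higher in the vestibule and 925 to 1863 higher in the cochlea. The lowest counts of both came without vestibular library 2, those without vestibular library 1 (1522 higher in the vestibule) and without cochlear library 2 (1035 higher in the cochlea) also fell by over 1.5 times, and without vestibular library 2 at 1 CPM in 2 libraries 1022 were higher in the cochlea. Without cochlear library 3 the counts were above those of the main fit, at 2694 higher in the vestibule and 1863 higher in the cochlea. The cause of these shifts was not tested. Library sizes without TMM scaling moved the median over all tested genes to 0.125 on the log2 scale and gave 2754 and 1251 calls, with no change in the calls of the members. Depth limits the cochlear levels of Otop1 and Nox3 and both levels of Noxo1.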
